A study of Mus musculus with 4 samples.

Results

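Neutrophils of mouse tibial and femoral epiphyses were examined in droplet-based single-cell RNA sequencing. A barcode was taken as a neutrophil when it held at least 500 genes and at most 15% mitochondrial UMIs, at least 300 UMIs of S100a8 and S100a9 together per 10,000 UMIs, and under 10 UMIs of the primary granule genes Elane, Mpo, Prtn3 and Ctsg together per 10,000 UMIs. Of 30952 kept barcodes, 2783 met the rule. A UMI is a molecular identifier that lets each captured RNA molecule be counted once, and members were chosen by the measured levels of these 6 genes. Those levels describe the choice and are not findings.

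The study dissected the epiphyses of tibia and femur from young mice, freed the cells with Liberase and made 1 library for each genotype and age, 4 in all. The mutant genotype was Sox9fl:fl AcanCreERT2/+ at postnatal days 13 and 19, in which a tamoxifen-dependent Cre under the Acan promoter acts on floxed Sox9 in cartilage cells. The control genotype was wild type at the same ages. Strain, littermate status, tamoxifen schedule, the floxed exons and the number of mice pooled per library were not given in the sources used here, and the series design text names other ages and a further genotype, so the sample labels were followed. The libraries hold 70507107 to 76080803 UMIs each, and neutrophils gave 1809939 UMIs in the mutant and 850786 in the control at day 13, and 5936569 in the mutant and 3083601 in the control at day 19. With 1 library for each genotype and age, no difference at a single age could be tested, and intervals given for shares and ratios cover counting error only. Across both ages, mutant and control were compared in 1 edgeR fit. Its p-values rest on the agreement of both ages and on a spread that is largely shared across genes. Each gene gave 1 residual degree of freedom, against 10.8 borrowed from all genes. That spread is between these 4 libraries only and may be technical.

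Neutrophils are short-lived granulocytes made in the bone marrow. There they pass from dividing precursors that fill primary granules to later cells that fill secondary and then tertiary granules. Secondary granules carry cathelicidin (Camp), neutrophilic granule protein (Ngp), lactoferrin (Ltf) and lipocalin 2 (Lcn2), and tertiary granules carry gelatinase (Mmp9). Mature cells carry the receptors Cxcr2 and Csf3r, which govern release from marrow and survival, and make cytokines such as Il1b and Cxcl2 when activated.

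Markers that the rule did not use matched the label. Retnlg, a resistin-like secreted protein of neutrophils, made up 1.58% of neutrophil UMIs on average over the libraries, Ngp 2.20% and Camp 2.12%. Retnlg stood at 14267 counts scaled to a library sum of 1000000 UMIs (CPM) in the mutant and 15233 CPM in the control at day 13. By day 19 it stood at 17781 CPM in the mutant and 16012 CPM in the control. Its mean in barcodes with B cell genes was 23.3 CPM and in skeletal barcodes, those rich in cartilage and bone transcripts and poor in blood cell transcripts, 11.2 CPM. To compare detection at 1 depth, cells of 1500 or more UMIs were thinned to 1500 and shallower ones left out, which left out 124 of 497 mutant and 74 of 274 control neutrophils at day 13 and 281 of 1518 mutant and 28 of 494 control neutrophils at day 19. Among those that remained, 91.2% of mutant and 88.5% of control neutrophils at day 13 kept a Retnlg UMI, as did 93.7% of mutant and 88.0% of control neutrophils at day 19, against 2.55% to 6.99% of B-gene barcodes. Without thinning the shares over all neutrophils were 89.9% in the mutant and 87.6% in the control at day 13, and 96.4% in the mutant and 93.1% in the control at day 19. S100a8 and S100a9 together took 20.02% of neutrophil UMIs in the mutant and 20.2% in the control at day 13, and 23.4% in the mutant and 26.4% in the control at day 19.

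Few barcodes lay near the S100 threshold. Sums just inside it, 300 to under 350 per 10,000, were held by 8 barcodes in the mutant and 7 in the control at day 13, and by 15 in the mutant and 2 in the control at day 19. Sums just outside it, 250 to under 300, were held by 7 mutant and 4 control barcodes at day 13 and by 19 mutant and 5 control barcodes at day 19. At the limit on primary granule genes, 5 mutant and 0 control barcodes at day 13, and 34 mutant and 6 control barcodes at day 19, lay just inside at 5 to under 10, while 1 mutant and 1 control barcode at day 13 and 11 mutant and 8 control barcodes at day 19 lay just outside at 10 to under 20. The 4 libraries shared 144 barcode sequences, none of which was a neutrophil in more than 1 library.

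Neutrophils took a larger share of the kept barcodes in the mutant library than in the control library at each age. They numbered 497 of 7429 kept barcodes in the mutant at day 13, or 6.69% (95% exact binomial interval 6.13 to 7.28), against 274 of 6340 in the control, or 4.32% (3.83 to 4.85). At day 19 they numbered 1518 of 9942 in the mutant, or 15.3% (14.6 to 15.99), against 494 of 7241 in the control, or 6.82% (6.25 to 7.43). The share of skeletal barcodes also differed between libraries, and with skeletal barcodes left out of the denominator neutrophils were 16.8% of the mutant and 18.3% of the control library at day 13, and 23.4% of the mutant and 8.15% of the control library at day 19. The direction at day 13 therefore depended on the denominator and that at day 19 did not, and the part of tissue dissection and digestion in these shares was not tested.

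**Figure D1:**
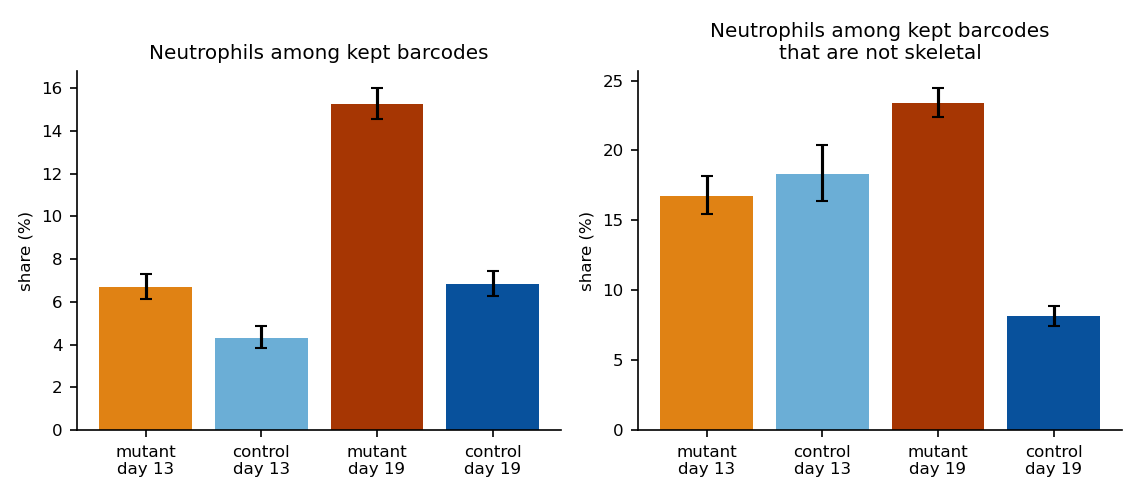
Share of barcodes called neutrophils in each library (%, bars, with exact binomial 95% intervals), on the left among all kept barcodes and on the right among kept barcodes that are not skeletal. The mutant library at day 19 is highest in both panels, at 15.3% and 23.4%, while the order of mutant and control at day 13 differs between the panels.

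Neutrophils were shallow cells. Their median was 2356 UMIs in the mutant and 2007 in the control at day 13, and 2681.5 in the mutant and 3909 in the control at day 19, against medians over all kept barcodes of 5409 to 9720. The median number of genes was 811 in the mutant and 774.5 in the control at day 13, and 830.5 in the mutant and 1030.5 in the control at day 19. Scrublet, which scores barcodes for likeness to simulated doublets, marked 7.04% of mutant and 3.65% of control neutrophils at day 13, and 9.68% of mutant and 7.09% of control neutrophils at day 19. These were kept, and counts of called genes without them are given beside the counts.

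Transcripts of other cell types were present, with cartilage and bone genes highest at day 13 and erythroid genes highest at day 19. The 46 cartilage and bone genes looked for, all of them seen, summed to 3.05% of neutrophil UMIs in the mutant and 3.22% in the control at day 13, and to 2.21% in the mutant and 1.31% in the control at day 19. B-gene barcodes of the same libraries held 1.29% and 0.80% in the mutants and 1.80% and 0.43% in the controls at days 13 and 19. Following the selection rule, these transcripts were treated as free RNA and no neutrophil result rests on them. The 12 monocyte and macrophage markers summed to 2.35 to 7.99 UMIs per 10,000 in neutrophils, against 58.3 to 107 in monocyte-gene barcodes, and the 10 B cell markers to 1.88 to 5.47 against 107 to 117 in B-gene barcodes. Haemoglobin and other erythroid genes differed most between libraries, at 79.1 per 10,000 in the mutant and 14.0 in the control at day 13, and at 260 in the mutant and 430 in the control at day 19. Eosinophil, basophil and mast cell markers summed to 0.141 to 0.506 per 10,000, and in the day 13 control 9 of 12 of them, Prg2, Epx and Gata2 among them, were at 0, while Fcer1a and Cpa3 were at 0 in both mutant libraries.

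The cells spanned the late stages of granulopoiesis when ordered by secondary granule transcripts. They were split by the sum of Camp, Ngp and Ltf per 10,000 UMIs into ranges of under 20, 20 to under 200, and 200 or more, which are ranges and not cell types. At 200 or more stood 33.2% of mutant (29.1 to 37.5) and 27.0% of control neutrophils (21.8 to 32.7) at day 13, and 40.9% of mutant (38.4 to 43.4) and 48.6% of control neutrophils (44.1 to 53.1) at day 19. Under 20 stood 46.3% of mutant and 52.6% of control neutrophils at day 13, and 35.7% of mutant and 23.1% of control neutrophils at day 19. Mutant minus control at 200 or more was thus +6.19 percentage points at day 13 and -7.67 at day 19, a difference between ages that was not tested. Among neutrophils of 1500 or more UMIs, thinned to 1500, which leaves out the shallower cells, the shares at 200 or more were 43.2% in the mutant and 38.0% in the control at day 13, and 49.6% in the mutant and 51.1% in the control at day 19. Mutant minus control was then 5.16 percentage points at day 13 and -1.44 at day 19. Between 100 and 400, near the upper bound, lay 12.5% of mutant and 13.9% of control neutrophils at day 13 and 16.6% of mutant and 18.4% of control neutrophils at day 19.

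Cells with more secondary granule RNA were also deeper. At 200 or more the median was 4033 UMIs in the mutant and 4304.5 in the control at day 13, and 4167 in the mutant and 7001.5 in the control at day 19. Under 20 it was 1442.5 in the mutant and 1503.5 in the control at day 13, and 1579.5 in the mutant and 1930.5 in the control at day 19. The median sum of cartilage and bone genes ran the other way, from 57.0 to 232 per 10,000 under 20 and from 19.9 to 96.6 at 200 or more. Mki67 or Top2a, which mark dividing cells, had a UMI in 20.6% of mutant and 24.3% of control neutrophils of the highest range at day 13, and in 24.6% of mutant and 45.4% of control neutrophils at day 19. Among neutrophils of 1500 or more UMIs, thinned to 1500, Mki67 was seen in 6.43% of mutant and 6.5% of control cells at day 13 and in 9.14% of mutant and 13.1% of control cells at day 19, against 22.1% to 37.8% of B-gene barcodes. Unthinned, over all neutrophils, it was seen in 8.85% of mutant and 6.93% of control cells at day 13 and in 15.9% of mutant and 24.7% of control cells at day 19.

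Granule and cell cycle genes stood higher at 200 or more, in counts over all tested genes of each list with no minimum level in either range. Of 12 secondary granule genes other than Camp, Ngp and Ltf, 11 were higher at 200 or more than under 20 in all 4 libraries and 1, the protease inhibitor Slpi, was lower in all 4. Of 26 cell cycle genes 16 were higher at 200 or more in all 4 libraries and 0 were lower in all 4. Over 495 tested genes led by neutrophils, leaving out those of the rule and of the ranges, 136 were higher at 200 or more and 197 higher under 20 in all 4 libraries. A gene was called led by neutrophils when its mean CPM there was at least 2-fold that in skeletal, B-gene, monocyte-gene and haemoglobin-rich barcodes. Barcodes rich in the primary granule genes were left out of that comparison, so a led gene may be as high in them. Tkt, for 1, was 1.03-fold its mean there. Among genes led by neutrophils with 100 CPM or more at 200 or more in every library, Serpinb1a, an inhibitor of neutrophil serine proteases, had the largest smallest fold, at 371 CPM in the mutant and 335 CPM in the control at day 13 and 329 CPM in the mutant and 431 CPM in the control at day 19, against 8.06 to 19.4 CPM in cells under 20. Lcn2, which binds bacterial siderophores, and Chil3, a chitinase-like lectin, were at least 9.63-fold and 9.37-fold higher in every library. Cebpe, the transcription factor required for secondary granules, was at least 2.95-fold higher, at 279 CPM in the mutant and 309 CPM in the control at day 13 and 283 CPM in the mutant and 422 CPM in the control at day 19. Cd177, a surface partner of proteinase 3, Anxa1, an annexin that limits neutrophil recruitment, and Ltb4r1, the leukotriene B4 receptor, were at least 6.45-fold, 4.86-fold and 5.13-fold higher. Zmpste24, a prelamin protease, was at least 9.15-fold higher and Lta4h, which makes leukotriene B4, 5.77-fold. Granule genes of the same cells set the ranges, so these values are a description with no test.

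Most cytokines and surface receptors of the lists stood higher under 20. Of 14 cytokine and chemokine genes 12 were higher under 20 than at 200 or more in all 4 libraries and 0 were lower in all 4. Osm, oncostatin M, was mixed, at 279 and 263 CPM in the mutants and 250 and 197 CPM in the controls under 20, against 370 and 428 CPM in the mutants and 157 and 198 CPM in the controls at 200 or more, days 13 and 19 in that order. Of 23 mature surface receptors 16 were higher under 20 in all 4 libraries, while Fcgr2b, Trem3 and Ltb4r1 were higher at 200 or more in all 4. Of 17 immediate early and stress genes 15, and of 22 interferon response genes 14, were higher under 20 in all 4 libraries. Of these, 0 of the 17 and 5 of the 22 were led by neutrophils, and the share over all tested genes was not computed. Levels were plain CPM, and S100a9 took at most 93963 CPM under 20 and at least 167360 CPM at 200 or more. That lowers the CPM of other genes at 200 or more. Under 20, Il1b, the interleukin-1β precursor, stood at 2421 CPM in the mutant and 2945 CPM in the control at day 13. At day 19 its levels were 2053 CPM in the mutant and 2109 CPM in the control, against 72.8 to 216 CPM at 200 or more. Cxcl2, a ligand of Cxcr2, stood at 3191 to 4556 CPM under 20 and at 212 to 585 CPM at 200 or more. Csf3r, the receptor of granulocyte colony-stimulating factor, was at least 5.48-fold higher under 20, Cxcr2 2.81-fold, the decoy receptor Il1r2 2.97-fold and the lectin receptor Clec4d 4.6-fold. The middle range held the most Retnlg in every library, at 19167 CPM in the mutant and 21583 CPM in the control at day 13 and 27640 CPM in the mutant and 34449 CPM in the control at day 19. At 200 or more, Retnlg stood at 10082 to 13079 CPM, and under 20 at 13464 to 23366 CPM. Mmp9 varied little over the ranges, with 1032 to 1515 CPM under 20 and 715 to 1274 CPM at 200 or more.

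**Figure D2:**
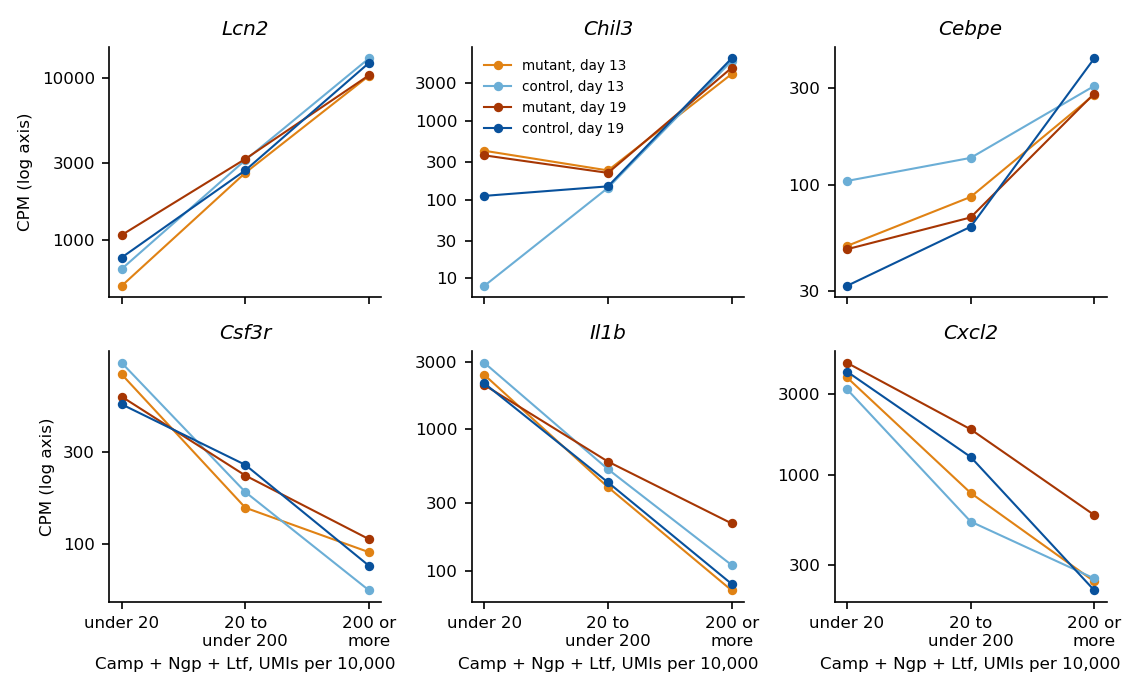
Level of 6 genes (CPM, log axis) in neutrophils of the 3 ranges of Camp, Ngp and Ltf, 1 line for each library. Lcn2, Chil3 and Cebpe are highest at 200 or more and Csf3r, Il1b and Cxcl2 highest under 20 in all 4 libraries; Chil3 under 20 is 415 and 363 CPM in the mutants and 8.06 and 111 CPM in the controls at days 13 and 19.

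One control library stood apart in Ltf and in some other genes led by neutrophils. Ltf, which codes for the iron-binding lactoferrin of secondary granules, stood at 3481 CPM in the mutant and 3194 CPM in the control at day 13. Its day 19 values were 4074 CPM in the mutant and 106 CPM in the control. The day 19 control was thus 30.0-fold below the next lowest library, while its Camp, at 27812 CPM, and its Ngp, at 30639 CPM, were the highest of the 4. In the range of 200 or more, which Ltf itself helps to define, it stood at 7150 CPM in the mutant and 6506 CPM in the control at day 13. Day 19 levels were 6919 CPM in the mutant and 145 CPM in the control. With Ltf left out of the ranges, 39.5% of mutant and 48.6% of control neutrophils at day 19 still stood at 200 or more. Of the neutrophils of 1500 or more UMIs, thinned to 1500, 51.7% in the mutant and 40.5% in the control kept an Ltf UMI at day 13, and 58.4% in the mutant and 12.2% in the control at day 19. Unthinned, over all neutrophils, the shares were 43.3% in the mutant and 33.9% in the control at day 13, and 52.3% in the mutant and 32.4% in the control at day 19. In B-gene barcodes 0.142% to 2.30% did. The log2 ratio of mutant to control was 0.12 (95% exact counting interval 0.06 to 0.19) at day 13 and 5.26 (5.10 to 5.42) at day 19, and over both ages Ltf did not pass in the edgeR fit (log2 fold change 2.59, SE 0.99, adjusted p = 0.23).

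Other genes were also low in that library, and they were picked after their values were seen. Among 297 tested genes led by neutrophils with at least 50 CPM in a library, 15 lay 2-fold or more below the lowest of the other libraries in the day 19 control, against 3 in the day 19 mutant, 2 in the day 13 control and 1 in the day 13 mutant. Itgb2l, an integrin beta 2-like chain, stood at 144 CPM in the mutant and 156 CPM in the control at day 13. By day 19 it stood at 166 CPM in the mutant and 19.1 CPM in the control. Gsr, the glutathione reductase that neutrophils use against their own oxidants, stood at 520 CPM in the mutant and 623 CPM in the control at day 13. At day 19 its levels were 541 CPM in the mutant and 126 CPM in the control. Gsr was low in the day 19 control in every range, at 85.8 CPM under 20, 93.3 CPM between 20 and 200, and 141 CPM at 200 or more, against 413 to 1040 CPM in the other libraries. Ifitm1, an interferon-inducible membrane protein, stood at 119 CPM in the mutant and 119 CPM in the control at day 13. Its day 19 values were 119 CPM in the mutant and 27.2 CPM in the control. Under 20, Ifitm1 was lowest in the day 19 control, at 111 CPM against 282 to 338 CPM. The same held between 20 and 200, at 48.4 CPM against 95.4 to 123 CPM. At 200 or more it did not, with 9.59 CPM there against 7.16 CPM in the day 13 mutant and 18.3 CPM in the day 13 control. Asprv1, an aspartic protease, the kinase Braf, and 5 stefin A genes were also among the 15. These stefin A genes were lower at day 19 in both genotypes, so not all 15 set the day 19 control alone apart. Stfa2 stood at 3981 CPM in the mutant and 4422 CPM in the control at day 13. Its day 19 values were 1139 and 528 CPM. Gm20406, also of the 15, stood highest in the day 13 control, at 62.3 CPM against at most 10.5 CPM in the others. Above the other libraries by 2-fold or more in the day 19 control were Fcnb, a ficolin, at 390 CPM against 122 to 138 CPM, the early granulocyte gene Ms4a3 at 55.1 CPM against 12.9 to 21.5 CPM, the short-chain fatty acid receptor Ffar2, and Gm34084. None of these but Gm34084 and the stefin genes passed in either edgeR comparison. Ms4a3, Ffar2 and Gm34084 reached 50 CPM in the day 19 control alone, so the minimum level admitted them only through that library. With 1 library for each genotype and age, a property of the library and one of its group cannot be told apart.

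Promoter sequences are shown for Ltf and Itgb2l, which were low in that library, and for Camp and Ngp, which were not, since Ltf, Camp and Ngp lie on the same chromosome and their proteins enter the same granule. They run from 250 bases before to 50 bases after the gene start, are credited to RefSeq (GRCm38.p6), and are written 5′ to 3′ on the gene's strand with capitals for TTGCNNAA, a C/EBP half-palindrome, and GAGGAA, a PU.1 core, on either strand; a motif's reverse complement is also in capitals. The windows are Ltf chr9:111019042-111019341 (plus strand), Itgb2l chr16:96443565-96443864 (minus strand), Camp chr9:109849407-109849706 (minus strand) and Ngp chr9:110419558-110419857 (plus strand).
Ltf: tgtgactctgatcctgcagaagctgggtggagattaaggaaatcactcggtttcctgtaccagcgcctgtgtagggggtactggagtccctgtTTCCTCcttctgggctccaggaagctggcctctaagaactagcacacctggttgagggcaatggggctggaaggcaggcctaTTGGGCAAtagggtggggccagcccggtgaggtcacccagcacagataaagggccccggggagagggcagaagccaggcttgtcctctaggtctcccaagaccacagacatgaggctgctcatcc
Itgb2l: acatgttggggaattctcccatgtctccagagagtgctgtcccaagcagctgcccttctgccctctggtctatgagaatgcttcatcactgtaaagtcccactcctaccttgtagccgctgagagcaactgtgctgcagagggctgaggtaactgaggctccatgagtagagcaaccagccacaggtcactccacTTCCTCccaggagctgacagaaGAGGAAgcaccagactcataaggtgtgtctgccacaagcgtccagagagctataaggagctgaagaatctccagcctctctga
Camp: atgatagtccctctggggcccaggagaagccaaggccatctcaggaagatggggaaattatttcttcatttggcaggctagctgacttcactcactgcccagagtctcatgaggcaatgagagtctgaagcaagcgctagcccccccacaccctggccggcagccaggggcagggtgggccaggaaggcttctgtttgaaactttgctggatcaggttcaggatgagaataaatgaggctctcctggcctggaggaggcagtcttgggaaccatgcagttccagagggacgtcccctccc
Ngp: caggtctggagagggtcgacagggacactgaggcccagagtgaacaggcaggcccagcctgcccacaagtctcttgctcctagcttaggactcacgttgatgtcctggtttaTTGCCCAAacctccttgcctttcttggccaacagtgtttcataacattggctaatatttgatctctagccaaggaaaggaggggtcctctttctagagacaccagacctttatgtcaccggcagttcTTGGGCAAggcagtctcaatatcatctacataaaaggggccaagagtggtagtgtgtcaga
The Ltf window held 1 match to each motif, Itgb2l 2 matches to GAGGAA, Ngp 2 matches to TTGCNNAA, and Camp none. Of 32851 promoter windows of the same length, 10.8% held TTGCNNAA and 28.3% held GAGGAA. A match describes the sequence and is not a bound site.

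**Figure D3:**
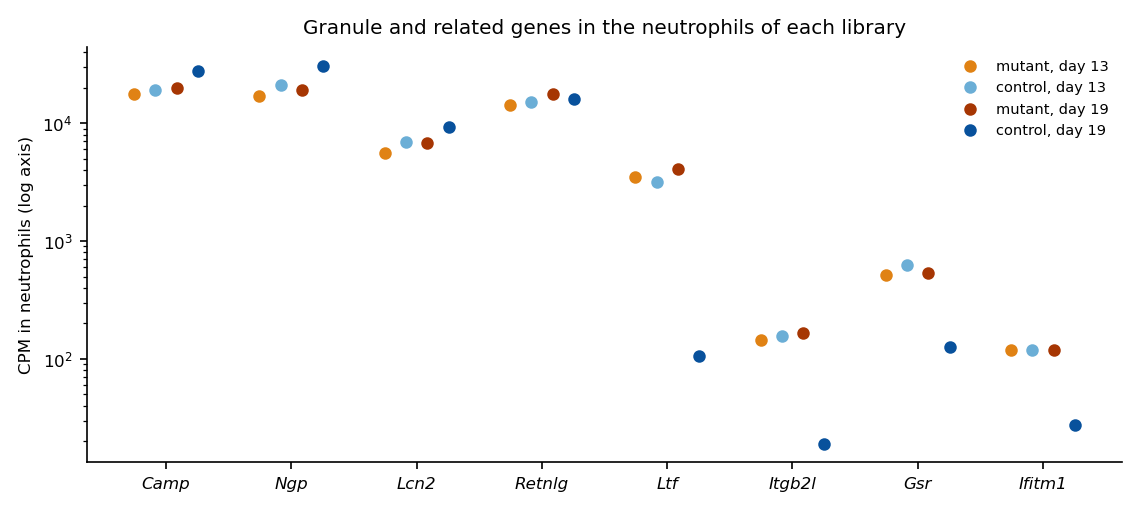
Level of 8 genes (CPM, log axis) in the neutrophils of each library, 1 point for each library, mutant left of control at each age. Camp, Ngp, Lcn2 and Retnlg lie close together over the libraries, while Ltf, Itgb2l, Gsr and Ifitm1 in the day 19 control, at 106, 19.1, 126 and 27.2 CPM, lie below the other 3 libraries.

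Across both ages, few of the genes that neutrophils lead were called between mutant and control. Of 8902 genes tested, edgeR's quasi-likelihood test with Benjamini-Hochberg adjustment called 295 (3.31%), 237 higher (2.66%) and 58 lower (0.652%) in the mutant. Of the 5320 tested genes with a higher mean level in skeletal barcodes than in neutrophils, 231 were called (4.34%), 214 higher (4.02%) and 17 lower (0.32%) in the mutant neutrophils. Among the 500 tested genes led by neutrophils, 21 were called (4.2%), 6 higher (1.2%) and 15 lower (3.0%) in the mutant, a share near that over all genes. The count depended strongly on the fit: DESeq2 called 98 genes in all and 8 led by neutrophils, leaving out Scrublet doublets gave 49 and 5 (Stfa1, 2010005H15Rik, Gm34084, A530064D06Rik and Klra17, each with a call in both fits), and the fit with no term for age gave 21 and 1. With the age term dropped, leaving out the day 13 mutant, the day 13 control, the day 19 mutant or the day 19 control gave 18, 725, 2 or 0 genes, with 909 genes at an unadjusted p under 0.05 in the last.

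The lowest were stefin A genes, cysteine protease inhibitors of a cluster on chromosome 16 with near-identical copies, so that reads may be split between copies and single values are uncertain. Stfa1 stood at 161 CPM in the mutant and 11735 CPM in the control at day 13. Day 19 levels were 5.05 CPM in the mutant and 1620 CPM in the control (log2 fold change -7.19, SE 0.51, edgeR adjusted p = 2.04e-05). Its neighbour 2010005H15Rik, named Csta2 in RefSeq, stood at 9.95 CPM in the mutant and 1381 CPM in the control at day 13, and at 0 in the mutant and 72.3 CPM in the control at day 19 (edgeR adjusted p = 1.83e-06). No other of the 8 stefin A genes of the list passed between genotypes. Strain and litter were not given, so for these and all other genes a difference between genotypes cannot be told apart from one between the backgrounds of the animals. With no term for age, both calls were lost when the day 19 mutant or the day 19 control was left out, and that of 2010005H15Rik also without the day 13 mutant.

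The other 13 genes led by neutrophils that were lower comprised 7 loci without a gene name and 6 named genes. Acod1, the enzyme that makes itaconate in activated myeloid cells, stood at 24.9 CPM in the mutant and 74.0 CPM in the control at day 13. By day 19 it stood at 25.1 CPM in the mutant and 75.9 CPM in the control (log2 fold change -1.67, SE 0.23, edgeR adjusted p = 0.0021). It was highest in cells under 20, at 54.2 CPM in the mutant and 189 CPM in the control at day 13 and 55.2 CPM in the mutant and 362 CPM in the control at day 19. Dgat1, which makes triglyceride for lipid droplets, stood at 149 CPM in the mutant and 323 CPM in the control at day 13. At day 19 its levels were 188 CPM in the mutant and 286 CPM in the control (log2 fold change -0.92, SE 0.20, edgeR adjusted p = 0.027). Mogat2, which acts a step earlier in the same synthesis, was lower too (4.42 CPM in the mutant and 16.5 CPM in the control at day 13, 5.39 CPM in the mutant and 24.0 CPM in the control at day 19, edgeR adjusted p = 0.0072). Tmcc1, a protein of the endoplasmic reticulum, stood at 122 CPM in the mutant and 284 CPM in the control at day 13. Its day 19 values were 109 CPM in the mutant and 192 CPM in the control (edgeR adjusted p = 0.010). Also lower were Vnn3, a pantetheinase, Scnn1a, a sodium channel subunit, and the loci A530064D06Rik, Gm34084, Gm12840, AI467606, B230208H11Rik, F630028O10Rik and 9830107B12Rik. A530064D06Rik stood at 3.87 CPM in the mutant and 48.2 CPM in the control at day 13. Day 19 levels were 4.72 CPM in the mutant and 46.1 CPM in the control (edgeR adjusted p = 0.00011).

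The 6 genes led by neutrophils that were higher in the mutant included a receptor, a growth factor and a gene of the Ly49 receptor family. Trem1, which amplifies signals of other innate receptors, stood at 620 CPM in the mutant and 377 CPM in the control at day 13. By day 19 it stood at 763 CPM in the mutant and 277 CPM in the control (log2 fold change 1.02, SE 0.22, edgeR adjusted p = 0.028). Under 20, Trem1 stood at 817 and 1053 CPM in the mutants and at 572 and 546 CPM in the controls, days 13 and 19 in that order. Between 20 and 200 it stood at 648 and 935 CPM in the mutants and at 372 and 425 CPM in the controls. At 200 or more these levels were 492 and 584 CPM in the mutants and 254 and 199 CPM in the controls. Csf3, the gene of granulocyte colony-stimulating factor, stood at 34.8 CPM in the mutant and 7.05 CPM in the control at day 13. At day 19 its levels were 56.3 CPM in the mutant and 24.6 CPM in the control (edgeR adjusted p = 0.032). Klra17, of the Ly49 receptor family, stood at 40.9 CPM in the mutant and 9.40 CPM in the control at day 13. Its day 19 values were 46.7 CPM in the mutant and 10.1 CPM in the control (edgeR adjusted p = 0.0024). Acvrl1, a receptor of the bone morphogenetic protein family, and the loci BC026762 and 6430531B16Rik were the others. Without Scrublet doublets all of these higher calls but that of Klra17 were lost (edgeR adjusted p = 0.052 for Trem1 and 0.11 for Csf3), and so were those of Acod1, Dgat1, Tmcc1, Mogat2, Vnn3 and Scnn1a (0.050 to 0.23). The calls of Trem1, Acod1, Dgat1 and Tmcc1 were also lost when any of the day 13 mutant, the day 19 mutant or the day 19 control was left out with no term for age.

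**Figure D4:**
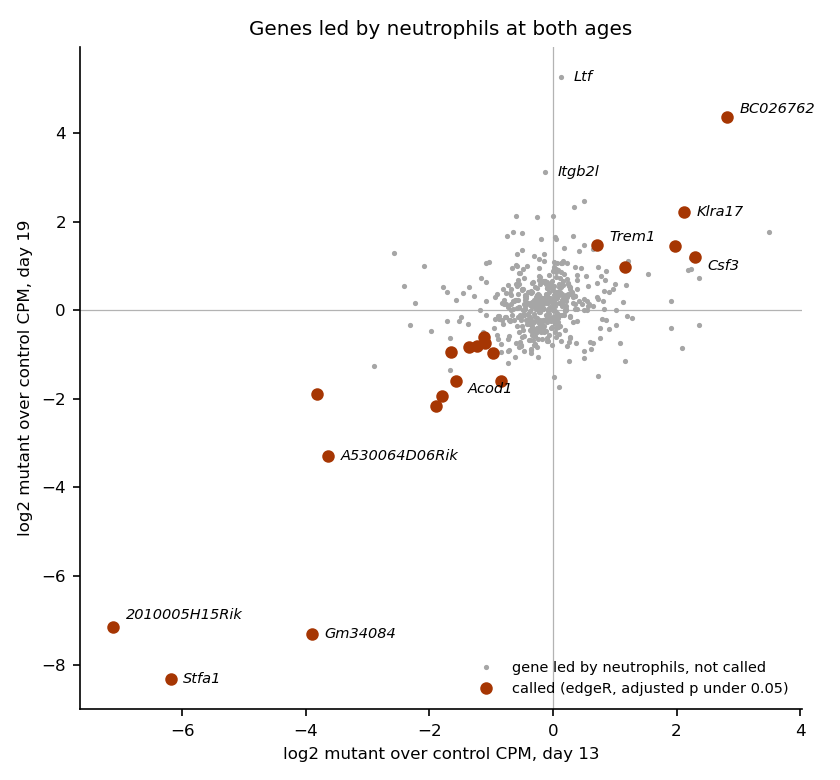
Log2 ratio of mutant to control CPM in neutrophils at day 13 (x axis) and day 19 (y axis) for the 500 tested genes led by neutrophils, with a count of 0 set to 3 counts. Red points are the 21 genes called by edgeR; Stfa1 and 2010005H15Rik lie at the lower left, Trem1 and Klra17 at the upper right, and Ltf lies at 0.12 and 5.26.

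Most of the genes called outside those led by neutrophils were higher in skeletal barcodes. By the rule for naming genes, the 12 highest in the mutant were Igfbp5, Lepr, Ndufa4l2, Col6a3, Col6a2, Ctgf, Aebp1, Pcolce, Lgals1, Lmna, Col6a1 and Cxcl14, most of them matrix and connective tissue genes. Of these only Lepr, the leptin receptor, was higher in neutrophils than in skeletal barcodes, at 71.3 CPM in the mutant and 2.35 CPM in the control at day 13 and 102 CPM in the mutant and 5.84 CPM in the control at day 19 (edgeR adjusted p = 3.06e-05), and its mean was 73.9 CPM in B-gene and 130 CPM in monocyte-gene barcodes. The cartilage and bone list, 44 tested, had 16 higher and 7 lower in the mutant neutrophils, with Bglap at 677 CPM in the mutant and 5.88 CPM in the control at day 13. The genes named as lowest beside Stfa1, Acod1, Tmcc1 and Dgat1 were Nfe2l2, Tomm22, Rab6a, Hist1h1b, Kansl1 and Txnip. Nfe2l2, a regulator of the oxidant response, stood at 48.6 CPM in the mutant and 108 CPM in the control at day 13. Day 19 levels were 46.7 CPM in the mutant and 107 CPM in the control (edgeR adjusted p = 0.0068). Txnip, an inhibitor of thioredoxin, stood at 208 CPM in the mutant and 395 CPM in the control at day 13. By day 19 it stood at 261 CPM in the mutant and 412 CPM in the control (edgeR adjusted p = 0.032).

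Granule and oxidase lists were short, and at the 3.31% called over all tested genes a count of 0 in such a list says little about it. Of 15 tested secondary granule genes edgeR called 0 (4 at an unadjusted p under 0.05, 0 by DESeq2), with a median log2 ratio of -0.16 at day 13 and -0.41 at day 19, against 0.02 and 0.14 over all tested genes. These ratios are of plain CPM, and TMM scaling in the fit shifted them by -0.02 at day 13 and -0.13 at day 19. Of 8 tested primary granule genes, some of which the selection rule limited, 0 were called (0 unadjusted, 0 by DESeq2). Camp stood at 17797 CPM in the mutant and 19225 CPM in the control at day 13. At day 19 its levels were 20015 CPM in the mutant and 27812 CPM in the control. Lcn2 stood at 5600 CPM in the mutant and 6909 CPM in the control at day 13. Its day 19 values were 6763 CPM in the mutant and 9340 CPM in the control. Both were lower in the mutant at each age by less than the fit required (edgeR adjusted p = 0.61 for Camp and 0.45 for Lcn2). Of 9 tertiary granule genes 0 were called (1 at an unadjusted p under 0.05, 0 by DESeq2), with medians of -0.09 and 0.55. Of 7 NADPH oxidase subunit genes, which make superoxide, 0 were called (0 unadjusted, 0 by DESeq2), with medians of -0.23 and -0.12.

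Receptor, cytokine and transcription factor lists had shares called near the 3.31% over all tested genes or below it. The immediate early and stress list, with 2 of 17 called, lay above that share. Of 23 mature surface receptors 1, Trem1, was called by edgeR and by DESeq2, and the list median was -0.26 at day 13 and 0.34 at day 19. Of 14 cytokine and chemokine genes edgeR called 0 (5 at an unadjusted p under 0.05, 0 by DESeq2). Osm came closest, at 302 CPM in the mutant and 182 CPM in the control at day 13 and 384 CPM in the mutant and 196 CPM in the control at day 19 (edgeR adjusted p = 0.050). Of 19 transcription factors 0 were called (7 unadjusted, 0 by DESeq2), Fos among them at 1712 CPM in the mutant and 947 CPM in the control at day 13 and 2232 CPM in the mutant and 1150 CPM in the control at day 19 (edgeR adjusted p = 0.068). Of 17 immediate early and stress genes Fosb and Atf3 rose in the mutant, with a list median of 0.26 at day 13 and 0.65 at day 19, and both had a higher mean in skeletal barcodes.

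Interferon and cell cycle lists were also read. Of 22 interferon response genes Oasl1 rose and Oasl2 fell in the mutant, both of them on chromosome 5. Oasl1 stood at 28.7 CPM in the mutant and 7.05 CPM in the control at day 13. Day 19 levels of Oasl1 were 22.2 CPM in the mutant and 4.54 CPM in the control. Oasl2 stood at 0.55 CPM in the mutant and 12.9 CPM in the control at day 13. By day 19 it stood at 0.17 CPM in the mutant and 15.6 CPM in the control (edgeR adjusted p = 0.0011, and 0.0077 for Oasl1). Trim12a and Trim12c, on chromosome 7, also fell, with at most 1.66 CPM in the mutants against at least 26.9 CPM in the controls, and these were picked after their values were seen. Of 26 cell cycle genes 0 were called (14 at an unadjusted p under 0.05, 0 by DESeq2), with medians of -0.35 and -0.66. At day 19, 0 of the 26 were higher in the mutant, against 5472 of all 8902 tested genes. Cells at 200 or more Camp, Ngp and Ltf, where 16 of the 26 stood higher, were 40.9% of mutant and 48.6% of control neutrophils at day 19. At day 13 the mutant held the larger share of such cells, 33.2% against 27.0%, with the list median at -0.35. Among cells at 200 or more, the mutant had less Mki67: 104 against 215 CPM for day 13, 136 against 271 CPM for day 19. Top2a was lower there too (140 against 280 CPM, then 174 against 274 CPM). Between 20 and 200 Mki67 was higher in the mutant at each age, and Top2a at day 13 only. Under 20 both genes were higher in the mutant at day 13 only. The part of the mix in the cycle genes was not tested. Among 8 other S100 genes S100a10 rose, and of 9 metallothionein and iron genes Mt2 rose, both of which were higher in skeletal barcodes. Apobec3, an antiviral deaminase gene, stood at 3.32 CPM in the mutant and 12.9 CPM in the control at day 13. At day 19 its levels were 2.02 CPM in the mutant and 17.5 CPM in the control (edgeR adjusted p = 0.0075), and was more abundant in B-gene barcodes. Of the 16 glycolysis, 14 survival, 19 adhesion and 7 lipid mediator genes 0 were called (2, 1, 4 and 2 at an unadjusted p under 0.05, 0 by DESeq2).

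Between ages, the stefin A genes were the clear difference among genes led by neutrophils. Of 8902 genes edgeR called 44 (0.494%), 23 higher (0.258%) and 21 lower (0.236%) at day 19, and of 500 led by neutrophils 10 (2.0%), 1 higher (0.2%) and 9 lower (1.8%). All 8 tested stefin A genes of the list were lower at day 19, in both genotypes. BC100530 stood at 4056 CPM in the mutant and 2332 CPM in the control at day 19, against 13382 CPM in the mutant and 13942 CPM in the control at day 13 (log2 fold change -1.98, SE 0.28, edgeR adjusted p = 0.016). Stfa3 stood at 560 CPM in the mutant and 302 CPM in the control at day 19, against 2656 CPM in the mutant and 2669 CPM in the control at day 13 (edgeR adjusted p = 0.0029). The ninth gene was 2010005H15Rik, and the gene that was higher was Prg2, an eosinophil granule gene, at 8.25 CPM in the mutant and 21.1 CPM in the control at day 19 and at 1.11 CPM in the mutant and 0 in the control at day 13. DESeq2 called 12 genes, 4 of them stefin A genes, while edgeR called 0 without Scrublet doublets (653 at an unadjusted p under 0.05) and 0 with no term for genotype (413). With that term dropped, leaving out the day 13 mutant, the day 13 control, the day 19 mutant or the day 19 control gave 0, 0, 232 or 6 genes (462 and 238 at an unadjusted p under 0.05 for the counts of 0).

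Of 9 tested erythroid markers 7, and of 9 tested B cell markers 2, were among the 23 genes higher at day 19. Those 23 included Hba-a1, Hbb-bs, Alas2, Slc4a1, Car2 and Blvrb of the red cell lineage and Ighm, Igkc and Cd79b of B cells. Hbb-bs stood at 13972 CPM in the mutant and 22927 CPM in the control at day 19, against 4045 CPM in the mutant and 805 CPM in the control at day 13 (edgeR adjusted p = 0.036), and was seen in 88.4% of mutant and 98.1% of control neutrophils of 1500 or more UMIs at day 19 after thinning to 1500, and in 99.5% of mutant and all 494 control neutrophils without it. In B-gene barcodes of day 19 the share was 90.1% in the mutant and 98.2% in the control, and a share at that level is read as background. Beyond stefin genes, the genes named as lower at day 19 were Nrep and Cdkn1c, both higher in skeletal barcodes. Of the secondary granule, tertiary granule, receptor, cytokine, transcription factor and cell cycle lists 0 genes were called between ages (6, 0, 3, 4, 3 and 13 at an unadjusted p under 0.05, 0 by DESeq2). Mki67 came closest of the cycle genes, at 124 CPM in the mutant and 217 CPM in the control at day 19, against 76.8 CPM in the mutant and 102 CPM in the control at day 13 (edgeR adjusted p = 0.064).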

How the data were processed

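The labels describe droplet capture with Chromium v3 chemistry and NovaSeq sequencing of Liberase-digested epiphyses. The deposited matrices hold whole-number UMI counts per gene and barcode, made by the authors with Cell Ranger 3.1.0 per the file headers; mm10 and Seurat 3 are named in the submitters' processing notes. Annotation came from GENCODE M21 and RefSeq (GRCm38.p6).

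From these counts, barcodes were kept, neutrophils chosen and UMIs summed per library as described above. The members, lists and comparisons were chosen with earlier results of these data known. Sums were tested with edgeR 4.0.16 (TMM, filterByExpr, additive genotype and age, 1 residual degree of freedom, 8902 genes, adjusted p under 0.05); DESeq2 1.42.0 was an alternative, and scanpy 1.11.5 ran Scrublet. Named genes passed the test with 1 sign at both ages and at least 50 CPM in the higher group; the 12 (genotype) or 8 (age) each way with the largest smaller ratio were taken, leaving out cartilage and bone, ribosomal, haemoglobin, immunoglobulin, sex-linked, mitochondrial, Gm and Rik genes and likely free RNA, beside the markers and the 5 most abundant of each list. Other named genes were chosen after their values were seen. Comparison barcodes were skeletal (8 matrix genes at 200 or more and 6 blood genes under 5 per 10,000), B-gene (Cd79a and Cd79b at 10 or more), monocyte-gene (4 genes at 10 or more) and haemoglobin-rich (1000 or more). Tested on simulated counts with a dispersion of 0.03, close to the 0.033 estimated, the genotype fit recovered 96.8% of 4-fold and 35.5% of 2-fold changes among 8755 genes, with 2 false calls. Apart from the changes set, the simulated libraries shared 1 level per gene and 1 dispersion, with no age or library differences. The real libraries differ in both ways, so these rates do not measure recovery or false calls in these data. Some genes that met the naming rule are not reported here.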

Additional observations from a re-analysis of the deposited data

Results flagged for a closer look

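The share of neutrophils at 200 or more Camp, Ngp and Ltf UMIs per 10,000 was 6.19 percentage points higher in the mutant than in the control at day 13, while the difference at day 19 was -7.67 points; the difference between ages was not tested. Among cells of 1500 or more UMIs thinned to 1500 these differences were 5.16 and -1.44 points, and at 1000 genes per barcode 2.22 and -15.08 points. Among genes named by genotype, by list or as markers, those whose single-age log2 ratios of mutant to control ran in opposite directions beyond counting error, by at least 0.5 at both ages, were Prtn3, a primary granule protease used by the selection rule (4.04 at day 13, from 1 UMI in the control, and -0.69 at day 19), the chemokine Ccl3 (-0.94 and 0.58), the interferon-induced Ifi27l2a (1.97 and -1.08) and Slfn4 (0.76 and -0.64). Ifi27l2a stood at 702 CPM in the mutant and 179 CPM in the control at day 13, and at 293 CPM in the mutant and 619 CPM in the control at day 19. List medians did the same for primary granule genes (0.50 and -0.66 over 8 genes, which include genes the rule limited, and 0.09 and -0.63 over the 5 others) and mature surface receptors (-0.26 and 0.34). None of these differences between ages was tested, since each rests on 1 library per group.

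Barcodes under 500 genes that met every other criterion for neutrophils numbered 23 in the mutant and 16 in the control at day 13, and 204 in the mutant and 11 in the control at day 19. They were 10.5% of all such shallow barcodes in the day 19 mutant and 0.467% in the day 19 control. With a minimum of 200 genes they enter the neutrophils, and 274 genes were then called between genotypes.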

How the results depend on the processing

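The number of genes called between genotypes was 295 (21 led by neutrophils) and between ages 44 (10). With RLE scaling these were 621 (48) and 324 (31), with no filter on low counts 602 (47) and 264 (30), with no term for the other factor 21 (1) and 0 (0), without Scrublet doublets 49 (5) and 0 (0), and by DESeq2 98 (8) and 12 (4). At 1000 genes per barcode they were 465 (39) and 95. Between ages an S100 sum of 200 or more gave 3 (2), one of 500 or more 17, and at most 10% mitochondrial UMIs 19. Within ranges, under 20 gave 102 (15) between genotypes, and 20 to under 200 gave 37 (5) and between ages 2 (2). The range of 200 or more gave 424 (37) between genotypes and 72 between ages. Of its 37 led by neutrophils, 25 were higher and 12 lower in the mutant, against 6 higher and 15 lower over all neutrophils. Under 20, 1 was higher and 14 lower, and between 20 and 200, 0 were higher and 5 lower. Leaving out 1 library, with no term for the other factor, gave 0 to 725 (0 to 58) between genotypes and 0 to 232 (0 to 24) between ages: 18 (3) and 0 (0) without the day 13 mutant, 725 (58) and 0 (0) without the day 13 control, 2 (0) and 232 (24) without the day 19 mutant, and 0 (0) and 6 (4) without the day 19 control.

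At 1000 genes per barcode neutrophils were 2.32% of mutant and 1.44% of control barcodes at day 13 and 7.71% of mutant and 5.79% of control barcodes at day 19, with 67.6%, 65.4%, 65.5% and 80.5% of them, in that order, at 200 or more. With skeletal barcodes left out, neutrophils made up 16.8% of the mutant and 18.3% of the control library at day 13, against 23.4% of the mutant and 8.15% of the control library at day 19. Without doublets the day 19 mutant was at 14.4%. At 200 genes the day 19 control was at 5.61% and 37.2% of day 19 mutant neutrophils stood at 200 or more; thinned, 43.2% of mutant and 38.0% of control neutrophils did at day 13 and 49.6% of mutant neutrophils at day 19. In 3 cases the direction reversed: Chil3 between genotypes under 20 (2.70, adjusted p = 0.020 by edgeR), Ccl3 between genotypes at 200 or more (0.93, adjusted p = 0.011), and Stfa1 between ages without the day 13 control (2.61, adjusted p = 0.98). The cause of these changes was not tested. Of 3800 single-gene values 3435 kept their direction and side of the threshold. No paired analysis was possible because each genotype and age has 1 library and the labels give no replicate numbers.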
